A study of Homo sapiens with 4 samples.

Results

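The genes described here are 7 metallothioneins (MT1E, MT1F, MT1G, MT1H, MT1M, MT1X and MT2A), the zinc-sensing transcription factor MTF1 and the zinc exporter SLC30A1. They were picked by symbol, with the values of A7-treated and vehicle-treated cells in view, and are 9 of the 23605 genes in the tables. RNA was sequenced from LCC9, a line descended from the breast cancer line MCF-7 that resists tamoxifen and, per the labels, carries a wild-type estrogen receptor alpha. The groups were cells given A7, a compound the labels call a BRCA1 mimetic (2 libraries), and cells given vehicle, DMSO (2 libraries), each for 24 h. All cells grew without phenol red in medium with 5% charcoal-stripped serum, which is poor in steroid hormones, and no dose is given. Catalogue numbers for A7 differ between the labels and the series title, so only the code name is used.

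Metallothioneins are small cytosolic proteins whose many cysteines hold zinc, copper or cadmium. When free zinc rises, MTF1 binds metal response elements in their promoters and in that of SLC30A1, which pumps zinc out across the plasma membrane. Metallothionein genes also answer to glucocorticoids and oxidative stress, and in breast cancer lines MT1E is known mainly from estrogen receptor-negative cells. The family lies in a cluster on chromosome 16, whereas MTF1 and SLC30A1 lie on chromosome 1.

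The coding sequences of the 3 metallothioneins found in every library are shown because their closeness bears on which gene a read is counted for. Each comes from GENCODE 29, runs 186 bases with its stop codon and holds 20 cysteine codons, and capitals mark the 25 positions at which the 3 are not all alike.
MT1F: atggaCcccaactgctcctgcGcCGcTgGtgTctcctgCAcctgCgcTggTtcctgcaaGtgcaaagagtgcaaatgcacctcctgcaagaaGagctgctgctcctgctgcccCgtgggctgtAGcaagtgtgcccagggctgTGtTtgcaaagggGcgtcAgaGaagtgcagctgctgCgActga
MT1X: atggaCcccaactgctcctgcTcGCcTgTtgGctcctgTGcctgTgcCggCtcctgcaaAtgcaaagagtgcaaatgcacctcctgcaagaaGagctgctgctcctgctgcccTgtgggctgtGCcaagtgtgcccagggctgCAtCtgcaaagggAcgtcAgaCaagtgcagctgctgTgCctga
MT2A: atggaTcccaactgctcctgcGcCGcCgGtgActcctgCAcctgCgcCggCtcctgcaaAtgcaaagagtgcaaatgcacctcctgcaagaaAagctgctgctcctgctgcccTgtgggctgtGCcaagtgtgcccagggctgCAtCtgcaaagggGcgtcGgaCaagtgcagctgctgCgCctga

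MT1F and MT2A differed at 16 of the 186 bases, MT1F and MT1X at 21, and MT1X and MT2A at 14. The capitals are most frequent near the start and the end, and the middle of the coding sequence is largely common to all 3. Of all windows of 50 bases along the whole transcript, 3.59% in MT1F and 4.88% in MT2A were also found in transcripts of another gene. In MT1X the share was 45.1%, and some of it was with AC026461.1, a gene whose GENCODE exons overlap those of MT1X on the same strand. With windows of 100 bases it was 0% for MT1F and MT2A and 19.1% for MT1X, with AC026461.1 the sole partner. No source used here gives the read length or the treatment of reads with several matches, so the split of reads is least certain for MT1X.

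Promoters of 5 of the 9 members are in the RefSeq table (GRCh38.p14, 250 bases before to 50 after the gene start). Those of MT2A and MT1X, the most abundant members, and of MT1H, which was listed at 0 in every library, are shown because the core of the metal response element can be read in them. Capitals mark the core, TGCACNC or TGCGCNC, on either strand.
MT2A, chr16:56608334-56608633, plus strand: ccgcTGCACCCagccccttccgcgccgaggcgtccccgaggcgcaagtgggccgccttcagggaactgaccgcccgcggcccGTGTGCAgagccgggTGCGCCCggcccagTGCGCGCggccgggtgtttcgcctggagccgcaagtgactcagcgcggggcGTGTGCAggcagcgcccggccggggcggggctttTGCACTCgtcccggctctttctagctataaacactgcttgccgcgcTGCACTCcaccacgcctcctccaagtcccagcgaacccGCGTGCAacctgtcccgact
MT1X, chr16:56682220-56682519, plus strand: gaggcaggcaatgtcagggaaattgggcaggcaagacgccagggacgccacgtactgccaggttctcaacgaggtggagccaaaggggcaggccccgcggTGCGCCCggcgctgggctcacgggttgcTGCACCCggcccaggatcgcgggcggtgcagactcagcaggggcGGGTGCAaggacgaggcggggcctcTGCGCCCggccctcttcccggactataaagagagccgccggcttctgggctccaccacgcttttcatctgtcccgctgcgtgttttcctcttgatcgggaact
MT1H, chr16:56669564-56669863, plus strand: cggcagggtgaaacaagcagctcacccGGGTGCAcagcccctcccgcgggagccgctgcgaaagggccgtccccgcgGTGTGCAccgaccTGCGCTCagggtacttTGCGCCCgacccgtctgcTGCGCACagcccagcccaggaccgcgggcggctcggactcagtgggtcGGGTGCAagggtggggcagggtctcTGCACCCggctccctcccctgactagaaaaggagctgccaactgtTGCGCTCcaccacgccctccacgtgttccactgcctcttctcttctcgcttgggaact

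The core occurred 8 times in the MT2A window, 8 times in that of MT1H and 4 times in that of MT1X, with no overlap between matches. The SLC30A1 window held 2 and that of MTF1 held 0. Among all 35116 promoter windows of the table, 29.6% held at least 1 core, 8.6% at least 2 and 0.601% at least 4. A match describes these letters only, and the windows of MT1H and MT2A had the same count although MT1H was listed at 0. MT1E, MT1F, MT1G and MT1M are not in the table.

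**Figure D1:**
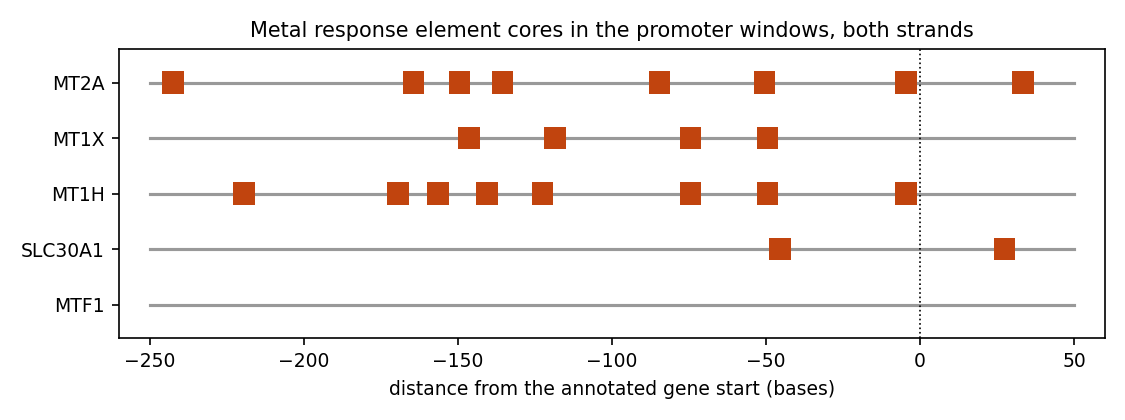
Map of metal response element cores (red blocks, 7 bases each, both strands) in the promoter windows of MT2A, MT1X, MT1H, SLC30A1 and MTF1; the horizontal axis is the distance from the annotated gene start in bases. MT2A and MT1H carry 8 cores each, MT1X 4, SLC30A1 2 and MTF1 0.

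The authors deposited FPKM per gene and library, and the values below are these divided by a factor per library that lies between 0.990 and 1.02 (scaled FPKM). Summed FPKM were 1189056 and 1192830 with A7 and 1324082 and 1473540 with vehicle. From the steps of low values, depth was roughly 4200000 and 3100000 fragments with A7 and 2300000 in each vehicle library. All 8 luminal breast markers were above 0 in every library. Their summed levels were 1017 and 772 scaled FPKM with A7 and 1150 and 914 with vehicle. These markers differed in direction. ESR1, GATA3, FOXA1 and CDH1 were higher in both A7 libraries than in either vehicle library. Means of KRT8, KRT18, KRT19 and EPCAM were lower with A7, and their groups overlapped. Of 5 basal markers, the keratins KRT5 and KRT14 were at 0, whereas ACTA2, TP63 and MYLK were above 0 in every library. ACTA2 was at 11.1 and 11.3 with A7 and at 13.7 and 14.6 with vehicle, whereas TP63 and MYLK overlapped between the groups. Blood and endothelial markers summed to 3.50 and 4.22 with A7 and to 4.21 and 4.24 with vehicle, mostly from CD68. The 5 fibroblast markers summed to 11.0 and 0.963 with A7 and to 0.416 and 0.421 with vehicle, with DCN at 8.40 in A7 replicate 1 and at 0 in both vehicle libraries. The part of these transcripts in the results was not tested, and in bulk RNA fewer cells of a type and less RNA per cell cannot be told apart. Whether the 2 libraries of a group came from separate cultures is not stated, so the spread between them may be technical. SDs cover these libraries only. SEs of log2 differences come from a fit over all tested genes and also draw on the spread of other genes.

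Treated cells expressed 3 metallothioneins at high level, as did vehicle-treated cells, and these differed in direction. MT1F was higher in both A7 libraries, MT2A was lower in both, and MT1X overlapped between the groups. MT1E, MT1H and MT1M were listed at 0 in all 4 libraries, and MT1G was above 0 in a single A7 library. MTF1 and SLC30A1 were low and overlapped between the groups.

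MT2A, the metallothionein with the broadest expression across tissues, was the most abundant member. It was listed at 582 and 522 scaled FPKM with A7, against 693 and 775 with vehicle. The A7 libraries were both below the vehicle libraries, and MT2A ranked 229th and 244th among all genes with A7 and 215th and 214th with vehicle. Means were 552 ± 42 with A7 and 734 ± 58 with vehicle (SD, n = 2 each), a ratio of 0.752. Across the 4 possible pairs of an A7 with a vehicle library the ratio ran between 0.673 and 0.840. On log2(scaled FPKM + 1) the difference of A7 minus vehicle was -0.41 (SE 0.13). Roughly 1918 and 1308 fragments with A7 and 1235 and 1431 with vehicle stand behind these values, taking the length of the main transcript.

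Most genes of like abundance also had a lower mean with A7 on this scale. Among 224 tested genes within a factor of 2 of the mean FPKM of MT2A, 87.9% had a lower mean with A7, and their median log2 difference was -0.17. A fall as large as that of MT2A was seen in 8.48% of them, a description and not a test, since MT2A was picked with this comparison in view. Rescaling to TPM, which sets every library to the same sum and moves the median of all tested genes to 0.17, gave MT2A a difference of -0.19, or -0.36 relative to that shift.

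MT1X, a metal-inducible member of the MT1 group, was next in abundance. It was listed at 414 and 431 scaled FPKM with A7, against 422 and 618 with vehicle. Both A7 libraries and vehicle replicate 1 lay close together, and vehicle replicate 2 stood above all of them. Means were 423 ± 12 with A7 and 520 ± 138 with vehicle (SD, n = 2 each), and the log2 difference was -0.27 (SE 0.20). Without vehicle replicate 2 it was 0.00104, so the lower mean rests on that library.

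MT1F, a member of the MT1 group with the same number of cysteine codons, differed in the opposite direction to MT2A. It was listed at 70.8 and 69.5 scaled FPKM with A7, against 42.9 and 46.0 with vehicle. The groups did not overlap and the replicates were close, with a log2 difference between replicates of 0.025 with A7 and 0.096 with vehicle. Means were 70.2 ± 0.9 with A7 and 44.5 ± 2.1 with vehicle (SD, n = 2 each), a ratio of 1.58 that ran between 1.51 and 1.65 over the pairs of libraries. The log2 difference was 0.65 (SE 0.13), and between 0.60 and 0.70 when each library was left out in turn. Roughly 205 and 153 fragments with A7 and 67 and 74 with vehicle stand behind these values. Of 1004 tested genes within a factor of 2 of its mean FPKM, 0.398% had a rise as large, and their median was -0.09. Since MT1F was picked with this comparison in view, that share is a description and not a test.

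**Figure D2:**
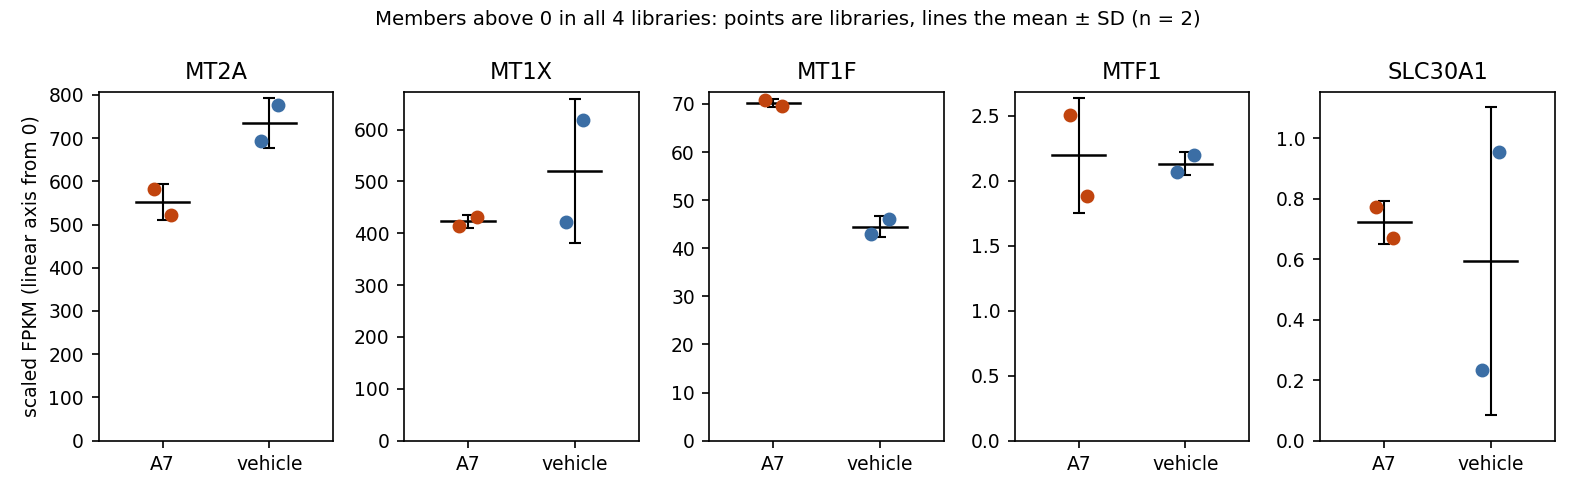
Scaled FPKM (vertical axes, linear and starting at 0) of the 5 members above 0 in all libraries; points are libraries, black lines the mean ± SD of A7 (left, n = 2) and vehicle (right, n = 2). MT2A is lower and MT1F higher in both A7 libraries, and the groups overlap for MT1X, MTF1 and SLC30A1.

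Ratios between members of the same library do not depend on any scaling between libraries. For every 100 FPKM of MT2A there were 12.2 and 13.3 FPKM of MT1F with A7, against 6.20 and 5.93 with vehicle. For every 100 FPKM of MT1X there were 17.1 and 16.1 of MT1F with A7, against 10.2 and 7.44 with vehicle. In both ratios the A7 libraries lay above the vehicle libraries. MT1X per 100 FPKM of MT2A was 71.2 and 82.6 with A7 and 60.9 and 79.7 with vehicle, and there the groups overlapped. A ratio within a library shows unequal change between genes and does not say which of them changed.

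**Figure D3:**
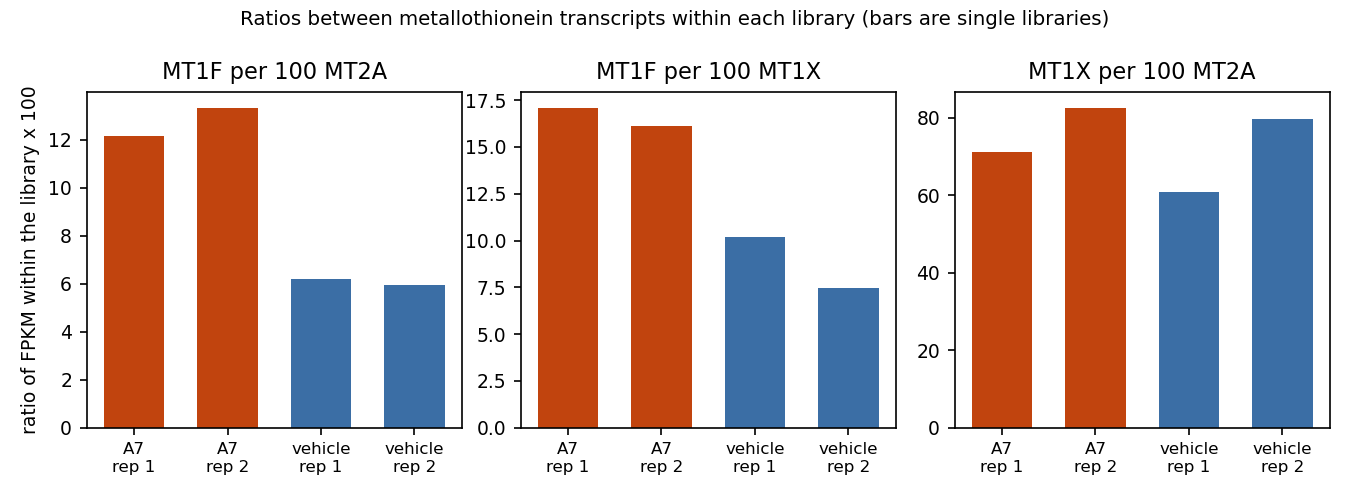
Ratios of FPKM between pairs of metallothionein genes within each library, times 100 (vertical axes from 0); each bar is a library, A7 in red and vehicle in blue. MT1F per 100 MT2A is 12.2 and 13.3 with A7 and 6.20 and 5.93 with vehicle, and MT1X per 100 MT2A overlaps between the groups.

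As a share of the summed FPKM of the 7 metallothioneins, MT1F made up 6.63% and 6.79% with A7, against 3.71% and 3.19% with vehicle. MT2A made up 54.5% and 51.0% with A7, against 59.8% and 53.9% with vehicle. MT1X made up 38.8% and 42.1% with A7, against 36.5% and 42.9% with vehicle. The higher share of MT1F thus stood beside a lower sum, since the 7 genes together came to 1067 and 1024 scaled FPKM with A7, against 1158 and 1439 with vehicle. The means of the sum were 1046 ± 30 with A7 and 1299 ± 199 with vehicle (SD, n = 2 each), a ratio of 0.805. Its log2 ratio was -0.31, -0.08 after rescaling to TPM and -0.15 without vehicle replicate 2.

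The other metallothionein members gave next to no signal. MT1G, a metal-inducible member often silenced by methylation in tumours, was listed at 1.52 scaled FPKM in A7 replicate 2, roughly 2 fragments, and at 0 in the other 3 libraries. MT1E, MT1H and MT1M stood at 0 throughout. A gene can be listed at 0 in a library and above 0 in its replicate, as SCO2 was with vehicle (3.415 and 0). A listing of 0 is therefore not taken as absence. Of 9 further metallothionein genes and pseudogenes in the tables, 5 were at 0 in every library (MT1A, MT1B, MT1JP, MT3 and MT4). MT1L and MT1P2 were above 0 in A7 replicate 1 alone and MT1IP in A7 replicate 2 alone. The pseudogene MT1DP, the only tested gene among them, was listed at 1.31 and 3.31 scaled FPKM with A7 and at 9.59 and 2.47 with vehicle. These overlap, and its log2 difference was -0.94 (SE 0.57, limma adjusted p = 0.806). It was -0.134 without vehicle replicate 1, -1.75 without vehicle replicate 2 and -0.491 without A7 replicate 1, so its size rests on single libraries.

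MTF1, the factor that switches metallothionein genes on when zinc rises, was listed at 2.51 and 1.88 scaled FPKM with A7, against 2.07 and 2.195 with vehicle. The vehicle libraries lay between the A7 libraries. Means were 2.198 ± 0.44 with A7 and 2.13 ± 0.09 with vehicle (SD, n = 2 each), with a log2 difference of 0.02 (SE 0.21) whose sign turned after quantile normalization, without A7 replicate 1 and without vehicle replicate 1. SLC30A1, the exporter and a known MTF1 target, was listed at 0.772 and 0.671 with A7, against 0.235 and 0.953 with vehicle. Both A7 libraries lay between the vehicle libraries, and roughly 18 and 12 fragments with A7 and 3 and 12 with vehicle stand behind these values. SLC30A1 was not tested, and at this depth the size of any difference is uncertain.

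Across the whole table, the 8952 genes whose FPKM averaged at least 1 were tested with limma and adjusted by Benjamini-Hochberg. Of these, 4 were members (MT1F, MT1X, MT2A and MTF1). At an adjusted p under 0.05 the test called 2 of the 8952 genes (0.0223%; 1 higher with A7, 0.0112%, and 1 lower, 0.0112%) and 0 of the 4 members. Groups did not overlap in 36.9% of all tested genes, 18.3% higher and 18.6% lower with A7, and in 2 of the 4 members, MT1F higher and MT2A lower. The median log2 difference was -0.13 over the 4 members and -0.0019 over all tested genes. Since the members were chosen with this comparison in view, their values are a description and no p is given for them.

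**Figure D4:**
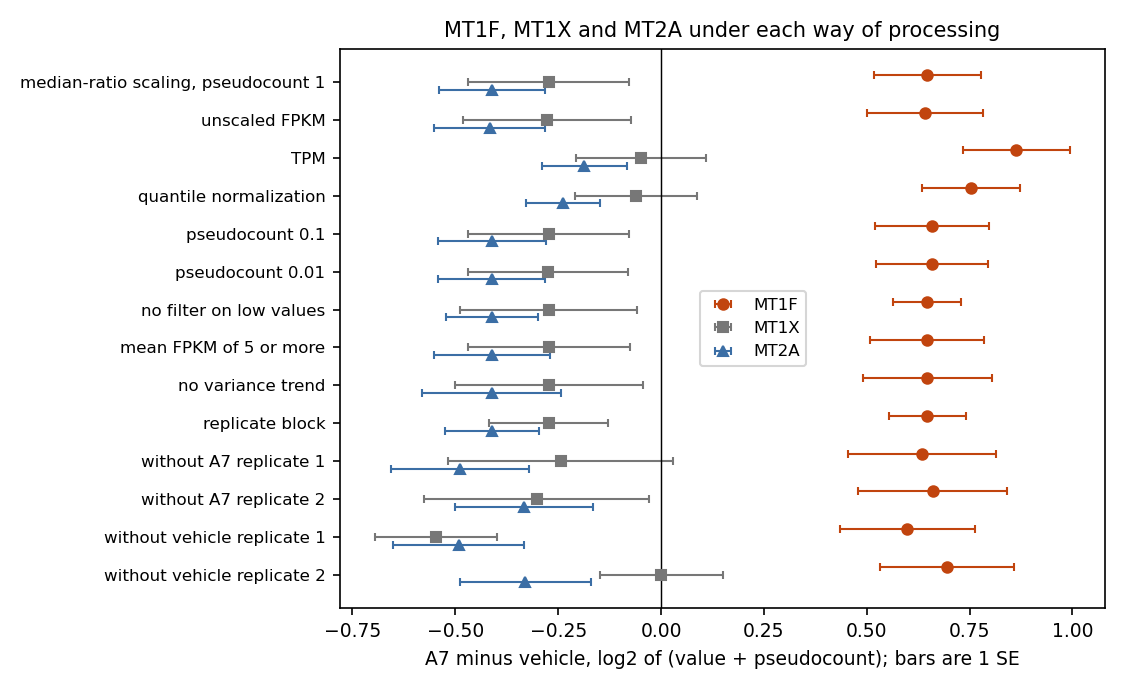
Log2 difference of A7 minus vehicle (horizontal axis, bars are 1 SE) of MT1F, MT1X and MT2A under each way of processing (vertical axis). MT1F lies between 0.60 and 0.86 and MT2A between -0.49 and -0.19, while MT1X reaches 0.00104 without vehicle replicate 2.

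Means of the zinc transporters lay on both sides of the vehicle level. SLC30A1, with a mean FPKM below 1, was not tested. Of other genes listed together as exporters, 4 of the SLC30 family and TMEM163 were tested. The mean was above vehicle in 4 and below it in 1, the median log2 difference was 0.10, and limma called 0. SLC30A9, which moves zinc out of mitochondria into the cytosol, averaged 6.88 ± 0.15 scaled FPKM with A7 and 5.05 ± 0.23 with vehicle (SD, n = 2 each), with a log2 difference of 0.38 (SE 0.16, limma adjusted p = 0.806). SLC30A6 and TMEM163 had log2 differences of -0.18 (SE 0.21) and 0.10 (SE 0.22), and their groups overlapped.

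SLC39 genes bring zinc into the cytosol, and among 9 tested the mean of A7 lay above vehicle in 5 and below it in 4 (median 0.05), with 0 called. SLC39A7, which releases zinc from the endoplasmic reticulum, was listed at 15.4 and 12.6 scaled FPKM with A7, against 6.60 and 10.2 with vehicle. Its groups did not overlap, and A7 minus vehicle came to 0.70 on the log2 scale (SE 0.23, limma adjusted p = 0.806). SLC39A6, an estrogen-induced importer also called LIV-1, was listed at 97.9 and 96.5 with A7, against 122 and 121 with vehicle. Its replicates were close, with a log2 difference of -0.32 (SE 0.12, limma adjusted p = 0.806), so neither gene passed over all genes. SLC39A1, a plasma membrane importer, averaged 25.8 ± 1.2 with A7 and 20.9 ± 1.8 with vehicle (SD, n = 2 each; log2 difference 0.29, SE 0.15).

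**Figure D5:**
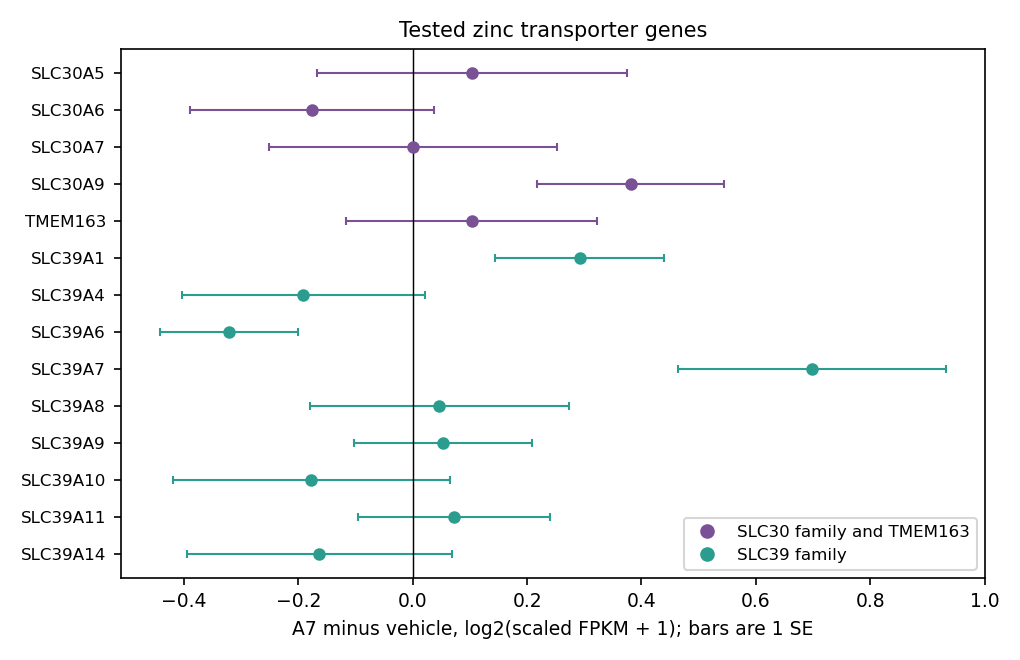
Log2 difference of A7 minus vehicle, log2(scaled FPKM + 1) (horizontal axis, bars are 1 SE), of the 14 tested zinc transporter genes. SLC30A1 was not tested and is not shown. The SLC30 family with TMEM163 is in purple and the SLC39 family in green. SLC39A7 lies highest at 0.70 and SLC39A6 lowest at -0.32, and 0 of the 14 passed over all genes.

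Genes of copper and iron handling were also tested, since metallothioneins bind copper too. Means with A7 lay above vehicle in 5 of 9 copper genes and below it in 4 (median 0.16), and above it in 6 of 8 iron genes and below it in 2 (median 0.04). COMMD1, which acts in copper export, averaged 172 ± 13 scaled FPKM with A7 and 209 ± 1 with vehicle (SD, n = 2 each; log2 difference -0.28, SE 0.13, limma adjusted p = 0.806). The copper importer SLC31A1 had a log2 difference of -0.24 (SE 0.18), and SCO2, a copper chaperone of cytochrome c oxidase, was at 3.001 and 3.009 with A7 and at 3.415 and 0 with vehicle. Among iron genes, the importer SLC11A2 was at 13.4 and 17.9 with A7 and 11.4 and 13.3 with vehicle. The ferritin heavy chain FTH1 was at 380 and 275 with A7 and 286 and 241 with vehicle, and the transferrin receptor TFRC at 139 and 231 with A7 and 171 and 297 with vehicle. For FTH1 and TFRC the groups overlapped, and 0 genes of either list were called by limma.

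Stress genes that cadmium or oxidants induce alongside metallothioneins had means above vehicle in 8 of 11 and below it in 3, with a median of 0.305. The median over all tested genes was -0.0019, and 0 of the 11 passed. DNAJB1, a cofactor of HSP70, averaged 10.3 ± 0.3 scaled FPKM with A7 and 7.44 ± 1.75 with vehicle (SD, n = 2 each). SRXN1, which repairs oxidised peroxiredoxins, averaged 6.01 ± 0.16 with A7 and 4.56 ± 0.17 with vehicle (SD, n = 2 each), and NQO1, a quinone reductase, averaged 290 ± 60 with A7 and 233 ± 28 with vehicle. Their log2 differences were 0.44 (SE 0.20), 0.34 (SE 0.17) and 0.31 (SE 0.18). The groups of DNAJB1 and SRXN1 did not overlap, those of NQO1 did, and all 3 had a limma adjusted p of 0.806. Over the list, groups did not overlap in 4 genes higher with A7 and in 1 lower. Among all tested genes these shares were 18.3% and 18.6%. The lower gene was SLC7A11 (log2 difference -0.24, SE 0.17). HSPA1A, HSPA1B and HSPH1 overlapped between the groups, with log2 differences of -0.16, 0.10 and -0.004.

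Of the glucocorticoid-induced genes 4 were tested, and A7 means lay above vehicle in 2 and below it in 2 (median -0.07), with 0 called. FKBP5 averaged 2.83 ± 0.26 scaled FPKM with A7 and 3.66 ± 0.99 with vehicle, and DUSP1 1.24 ± 0.64 with A7 and 1.69 ± 0.79 with vehicle (SD, n = 2 each). The groups of both overlapped. ERRFI1 was at 1.85 and 1.31 with A7 and at 1.204 and 1.102 with vehicle. TSC22D3 was at 3.82 and 3.475 with A7 and at 3.11 and 3.425 with vehicle. For ERRFI1 and TSC22D3 the A7 libraries lay above the vehicle libraries without overlap, as for 18.3% of all tested genes.

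Among 6 tested neighbours of the metallothionein cluster on chromosome 16, the A7 mean lay above vehicle in 1 and below it in 5 (median -0.06), with 0 called. The nuclear pore gene NUP93 was at 20.3 and 25.5 scaled FPKM with A7 and at 26.3 and 26.7 with vehicle (log2 difference -0.21, SE 0.17). OGFOD1, a ribosomal protein hydroxylase, was at 24.9 and 26.4 with A7 and at 25.9 and 32.5 with vehicle, and HERPUD1, of protein quality control in the endoplasmic reticulum, at 6.25 and 4.44 with A7 and at 3.62 and 5.51 with vehicle. Over all 8 lists, 53 genes were tested, 0 were called at an adjusted p under 0.05 and 2 had an unadjusted limma p under 0.05, against 5.76% of all tested genes. In 15 of the 53 the groups stood apart without overlap, 11 higher and 4 lower with A7, whereas over all tested genes this share was 36.9%, 18.3% higher and 18.6% lower.

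The likeness of other genes to the mean pattern of MT1F, MT1X and MT2A was measured over the 4 libraries, as the Euclidean distance between log2 values centred on each gene's mean, in 3277 genes whose FPKM averaged at least 10. CCZ1B (0.0354), BPNT1 (0.0383), C8orf76 (0.0390), RAB5A (0.0399) and TMEM38B (0.0430) were nearest. MT1F itself lay 0.671 away, MT2A 0.414 and MT1X 0.334, so the mean stood for none of the 3. Nearest to each gene by the same measure, added after the values were seen, was ID2 for MT1F at a distance of 0.0988, CRKL for MT1X at 0.0428 and RPS26P11 for MT2A at 0.0089, with RPS16 next at 0.0272. ID2, whose protein blocks DNA binding of helix-loop-helix factors, was listed at 390 and 384 scaled FPKM with A7 and at 259 and 258 with vehicle. RPS16, a ribosomal protein gene, was at 2109 and 1918 with A7 and at 2536 and 2884 with vehicle. Both were picked for their likeness to a member, so their separation follows from that choice. Neither was called (limma adjusted p = 0.579 for ID2 and 0.806 for RPS16).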

How the data were processed

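The authors deposited 1 table of FPKM per gene for each of 4 RNA-seq libraries (2 A7, 2 vehicle), per the file headers. The submitters' processing notes name CASAVA 1.8.2, TopHat, Cufflinks 2.2.1 and the build GRCh37, without saying which did what. The sources used here do not give the annotation or the treatment of multi-mapped reads, and the labels' protocols (SMARTer PCR cDNA, sheared and ligated) name no step that marks strand. Of 23619 lines, 14 with a whole number as symbol were left out. Libraries were divided by their median ratio to the geometric mean over genes above 0 in all 4 whose FPKM averaged at least 1. limma 3.58.1 in R 4.3.3 (lmFit, eBayes with trend, two-sided) was fitted with 2 residual and 3.89 prior degrees of freedom. The fit used log2(scaled FPKM + 1) of 8952 genes. This scale understates the change of low genes. An exact permutation test of 2 against 2 libraries cannot go below p = 0.333. Rough fragment numbers come from the mode of FPKM times GENCODE 29 length over low single-transcript genes, and cover counting only. Members and lists were chosen with earlier results of these data known. Named are all members, up to 3 genes of smallest p per list, and the 5 genes of nearest pattern. ID2, CRKL, RPS26P11 and RPS16, nearest to single members, were added after values were seen, outside this rule. So were SLC7A11, HSPA1A, HSPA1B, HSPH1 and TSC22D3, to show more of their lists. The check of replicate numbers, other scalings, pseudocounts, filters and left-out libraries are given in the closing section.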

Additional observations from a re-analysis of the deposited data

How the results depend on the processing

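MT1F stayed higher and MT2A lower with A7 under all 13 alternatives, and 0 members passed over all genes under any of them. MT1F had a log2 difference of 0.864 with TPM and 0.754 after quantile normalization (0.689 and 0.749 relative to the median of all genes), and 0.599 to 0.695 with a library left out. MT2A had -0.186 with TPM and -0.238 after quantile normalization (-0.361 and -0.244 relative to that median), and -0.492 to -0.33 with a library left out. MT1X ran between -0.547 and 0.00104 with a library left out, the highest without vehicle replicate 2. MTF1 turned to -0.0381 after quantile normalization, -0.119 without A7 replicate 1 and -0.00596 with vehicle replicate 1 left out. It reached 0.164 without A7 replicate 2. The log2 ratio of the metallothionein sum was -0.0798 with TPM and -0.12 after quantile normalization, -0.461 to -0.148 with a library left out, -0.306 with all listed metallothionein genes and -0.171 without MT2A.

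Genes called over the whole table, 1 higher and 1 lower, came to 0 higher and 0 lower with no filter on low values and 0 higher without the variance trend. Lower genes came to 2 with TPM, 2 after quantile normalization, 0 with a pseudocount of 0.1, 0 with one of 0.01 and 3 with a mean FPKM of 5 or more. With a library left out there were 1 to 10 higher and 0 to 7 lower genes. Omitting A7 replicate 1 gave 10 higher and 0 lower, and omitting A7 replicate 2 gave 9 and 2. Omitting vehicle replicate 1 gave 1 and 6, and omitting vehicle replicate 2 gave 2 and 7. With the replicate number as a block there were 0 higher and 0 lower genes. Deviations of same-numbered libraries correlated at 0.0906 over genes, and the labels do not say that a number marks a shared batch. The 8 lists around the members gave 0 called genes under every alternative. The cause of these shifts was not tested. SLC30A1, at roughly 3 to 18 fragments per library, and MT1G, at 0 to 2, are limited by depth, and 2 libraries per group limit every value.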
